A study of Rattus norvegicus with 24 samples.

Results

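A set of 10 genes of transforming growth factor beta (TGF-beta) and activin signalling were followed in colonic tumours and normal distal colon of male (ACIxF344)F1-Pirc rats. They are the ligand genes Tgfb1, Tgfb2, Tgfb3 and Inhba, the receptor genes Tgfbr1 and Tgfbr2, the signal carriers and brakes Smad3, Smad7 and Fst, and Tgfbi. Genes were taken by name from the probe annotation of the array, with older names updated. All 10 genes were on the array, which holds 15212 genes with a current name, and 14 of its 41012 gene probes measured them. Smad3 passed the background filter on too few arrays to be tested, so 9 of the 10 genes were tested.

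All rats carried the genotype Apc-Pirc/+, in which 1 copy of the tumour suppressor gene Apc is mutant and colonic tumours form in untreated animals. The 4 groups were DSS tumours on 6 arrays, untreated tumours on 5 arrays, DSS normal colon on 6 arrays and untreated normal colon on 7 arrays. Each group held 5 rats, and tumour and normal colon came from the same 10 rats. DSS rats (numbers 1, 5, 6, 7 and 9) drank 4% dextran sodium sulfate of molecular weight 500000, which injures the colonic lining. They drank it from day 40 to 47 and from day 54 to 61 of age, untreated rats (2, 3, 4, 8 and 10) did not, and all tissue was taken at 97 days. Cy3-labelled RNA of each sample was hybridised alongside a pool of colon RNA labelled with Cy5, made from rats wild type for Apc. Every level given is the log2 ratio of a sample to that pool. A level of 0 is that of the pool, and 1 is a ratio of 2. An offset of 50 intensity units was added to both signals first, which draws the ratios and folds of dim probes toward 0. The labels do not say how many tumours of a rat were taken, and normal colon of Pirc rats carries the same mutant Apc copy as the tumours.

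TGF-beta ligands are secreted bound to a latency peptide and must be released before they act. They bind the receptor TGFBR2, which recruits and phosphorylates TGFBR1, and TGFBR1 then phosphorylates SMAD2 and SMAD3, which enter the nucleus with SMAD4. Activins act through their own receptors on the same SMADs, and activin A is a dimer of the inhibin beta A chain encoded by Inhba. SMAD7 is induced by the signal and blocks it at the receptor, and follistatin, encoded by Fst, binds activin outside the cell. In the intestine TGF-beta restrains the division of epithelial cells, and it drives fibroblasts to lay down matrix during wound repair.

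The share of probes with a Cy3 signal well above background was 47.6% to 70.5% on 21 of the 24 arrays. It was raised, at 86.9% to 95.2%, on 3 arrays: the tumour of rat 9, the normal colon of rat 4 and the first of both arrays of rat 2's normal colon. The slide identifiers fall into 2 number series, called slide sets here, with 3 rats of each group in set 1 and 2 rats of each group in set 2. Slide set 2 was scanned on a day of its own, and the slide set and that day cannot be told apart. The normal colon samples of DSS rats 1 and 5 correlated across features at 0.97, other pairs of that group at 0.727 to 0.864, and second arrays of 1 sample at 0.813 to 0.968. Whether these 2 samples are separate animals' tissue was not tested further, and calls that were lost or gained without either are given below. Of the colonic epithelium markers that were measured, all were well above background on every array except Muc2. Muc2 passed on 1 of 6 arrays of DSS tumours, 4 of 5 of untreated tumours, and every array of normal colon. Markers of squamous epithelium, which lines the anal canal and not the colon, had mean levels of 2.709 to 4.718 in normal colon of the DSS rats. They were at -0.014 to 0.071 in normal colon of untreated rats 2, 3, 4 and 10 and at 1.781 in that of rat 8. In tumours the squamous mean was -0.091 to 0.178 in DSS rats and 0.045 to 0.258 in untreated rats.

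The probes that carried the 3 genes that changed are shown because each value rests on what such a 60-base oligonucleotide binds. Tgfb1 lies on chromosome 1 (90324312 to 90340627), Inhba on chromosome 17 (53787159 to 53810942) and Fst on chromosome 2 (47856345 to 47863670) in the RefSeq annotation of build GRCr8. The probes' own positions were not mapped here. Each of the 4 sequences leaves 2 of its 3 reading frames open, which does not show whether it lies in coding sequence.
Tgfb1: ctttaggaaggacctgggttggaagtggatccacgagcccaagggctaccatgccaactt
Inhba: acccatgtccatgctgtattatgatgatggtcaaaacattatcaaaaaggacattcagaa
Fst probe 1: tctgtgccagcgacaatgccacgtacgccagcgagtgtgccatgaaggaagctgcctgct
Fst probe 2: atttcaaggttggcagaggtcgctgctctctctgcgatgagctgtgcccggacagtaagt

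Tgfb1 encodes the most widely expressed TGF-beta ligand. Its levels in tumours of DSS rats 1, 5, 6, 7 and 9 were 0.27, 0.74, 1.21, 0.73 and 0.61. In tumours of untreated rats 2, 3, 4, 8 and 10 they were 0.36, 0.85, 1.55, 1.08 and 1.51. In normal colon they were 0.97, 0.89, 0.56, 0.95 and 0.72 in the DSS rats, against 0.09, 0.20, 0.07, 0.24 and 0.02 in the untreated rats. Normal colon of untreated rats was thus the low group: its highest sample was below every sample of the other 3 groups, which overlapped each other.

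In untreated rats Tgfb1 averaged 1.07 ± 0.494 in tumours and 0.123 ± 0.092 in normal colon (SD, n = 5 each), and the tumour was higher than the normal colon of the same rat in 5 of 5 rats. The log2 change was 0.947 ± 0.19 (SE), 1.93-fold, with a limma adjusted p of 0.00196. In DSS rats the gene averaged 0.712 ± 0.336 in tumours and 0.819 ± 0.174 in normal colon (SD, n = 5 each), and the tumour was higher in 1 of 5 rats. The log2 change there was -0.107 ± 0.19, with a 95% interval of -0.506 to 0.292 and a limma adjusted p of 0.82.

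Set against untreated rats, DSS rats had 1.62-fold more Tgfb1 in normal colon (log2 change 0.696 ± 0.19, limma adjusted p 0.0323). In tumours the log2 change with DSS was -0.358 ± 0.19, with an interval of -0.757 to 0.041 and a limma adjusted p of 0.876. The DSS effect in tumours minus that in normal colon was -1.054 ± 0.269 (limma adjusted p 0.0429). The DSS comparison in normal colon and the tumour comparison in untreated rats share the same 5 samples of untreated normal colon, and the difference between the DSS effects holds all 4 groups.

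The tumour difference of Tgfb1 in untreated rats passed the threshold in 24 of 25 alternatives and missed it within slide set 1 (0.801, adjusted p 0.1). With Agilent's own processed signals, which carry no added offset, it was 1.97. The pool's Tgfb1 signal above local background had a median of 32.3 intensity units in set 1 and 45.3 in set 2, below the offset of 50 used here. The DSS difference in normal colon was less firm: it was 0.687 (adjusted p 0.151) within slide set 1 and 0.71 (0.218) within set 2. Its adjusted p was 0.0627 without DSS rat 1, 0.0818 without DSS rat 5 and 0.0529 to 0.0768 without any one of rats 3, 4, 7, 8 or 9. Without the 3 arrays of raised signal it was 0.669 (adjusted p 0.0849), and the difference between the DSS effects was -1.003 (0.133). That difference also missed the threshold with rat as a fixed block (0.0583) and without any one of 8 rats (0.0727 to 0.14), and held without rat 2 or rat 6. The squamous markers were also raised in normal colon of DSS rats. There 3.98% of all features were higher than in untreated rats. Of the squamous markers 7 of 7 measured ones were higher, with a median log2 change of 2.618. Their mean levels in normal colon of DSS rats 1, 5, 6, 7 and 9 were 2.709, 3.361, 2.796, 3.227 and 4.718. Tgfb1 was at 0.97, 0.89, 0.56, 0.95 and 0.72 in the same order. The defining basal cell gene Tp63 was well above background on 0 of 6 arrays of DSS tumours and 0 of 5 of untreated tumours. In normal colon it was so on 6 of 6 arrays of DSS rats and 2 of 7 of untreated rats. It passed the filter of at least 5 arrays only through DSS normal colon, so its own rise was favoured by the filter. Ivl, well above background on 0 of 6 arrays of DSS normal colon, did not pass the filter and is not among the 7 markers. In normal colon of untreated rat 8, where the squamous mean was 1.781, Tgfb1 was at 0.24, against 0.02 to 0.20 in the other 4 rats of that group. The part of the squamous signal in the Tgfb1 result was not tested, and in such bulk samples fewer cells of a type and less RNA per cell cannot be told apart.

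**Figure D1:**
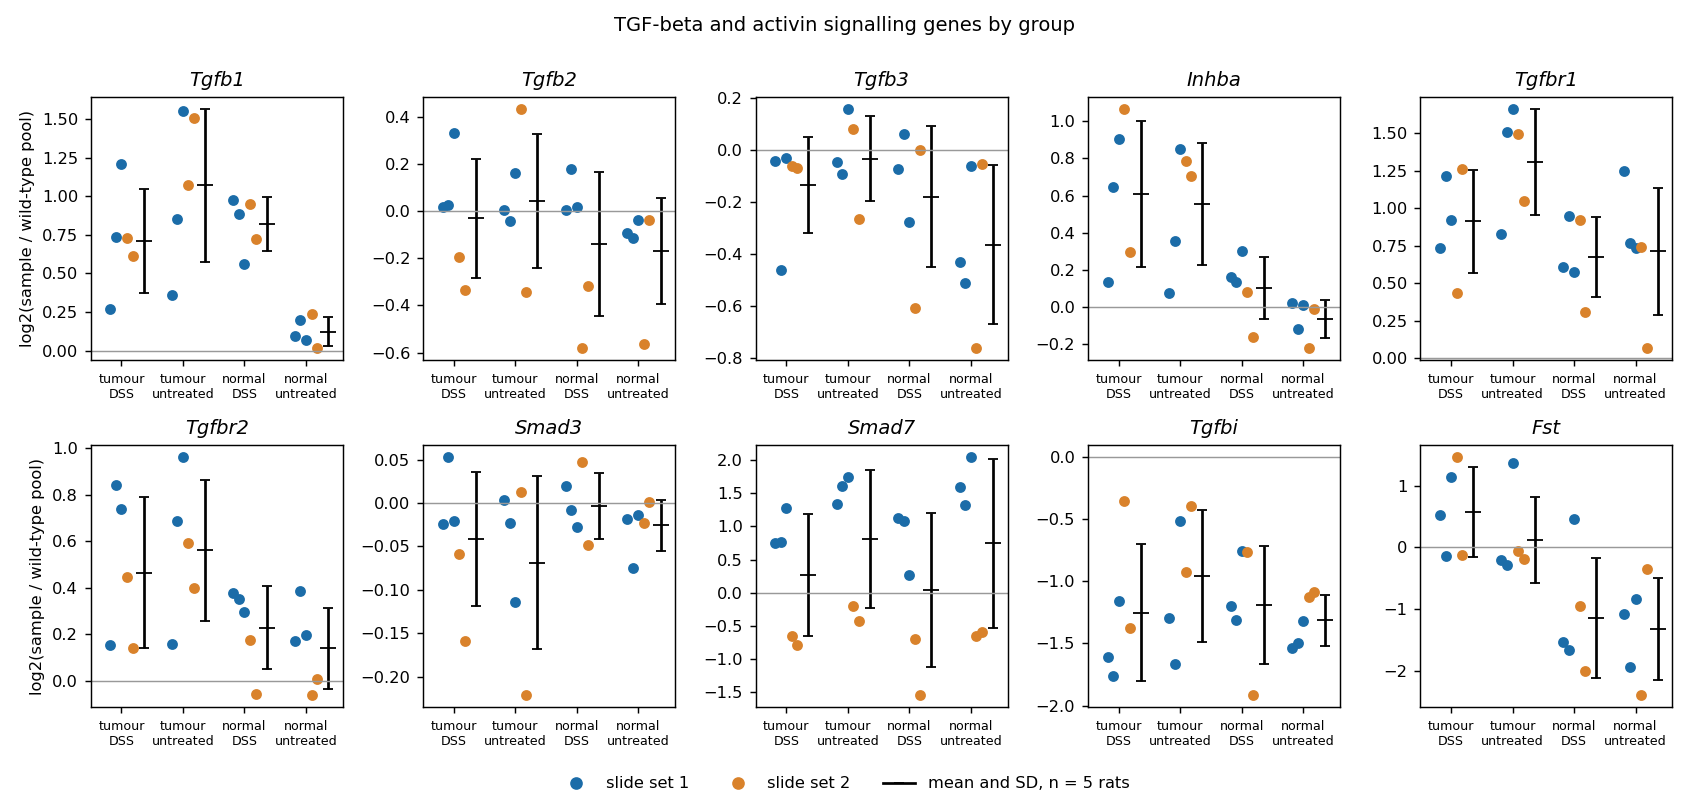
Level of each of the 10 genes in every sample, as log2 ratio to the pool of wild-type colon (vertical axis), with 1 point per rat, coloured by slide set, and the group mean with its SD (n = 5 rats) beside the points; the vertical scale differs between genes. Tgfb1 is low only in normal colon of untreated rats, Inhba and Fst are higher in tumours on average, and Smad7 splits each group into 2 clusters.

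Tgfb2 and Tgfb3 encode the other 2 TGF-beta ligands, and both were dim. Tgfb2 was well above background on 12 of the 24 arrays and Tgfb3 on 15. Tgfb2 ranged from -0.33 to 0.33 in DSS tumours, -0.34 to 0.43 in untreated tumours, -0.58 to 0.18 in normal colon of DSS rats and -0.57 to -0.04 in that of untreated rats. Tgfb3 ranged from -0.46 to -0.03, -0.27 to 0.16, -0.61 to 0.06 and -0.76 to -0.05 in the same 4 groups. All 4 groups overlapped for both genes. The log2 change of Tgfb3 in tumours of untreated rats was 0.332 ± 0.147 (limma adjusted p 0.135). With Agilent's processed signals it was 1.908 (adjusted p 0.0013), and the DSS difference of Tgfb3 in normal colon was 1.623 (0.0107). Tgfb3 was well above background on only 1 of the 7 arrays of untreated normal colon, so that these 2 values rest on signals near background. For Tgfb2 the tumour changes were 0.109 in DSS rats and 0.212 in untreated rats, and neither passed the test.

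Inhba encodes the chain that pairs to form activin A. Its levels in tumours were 0.14, 0.65, 0.91, 1.07 and 0.29 in DSS rats 1, 5, 6, 7 and 9, and 0.08, 0.35, 0.85, 0.79 and 0.71 in untreated rats 2, 3, 4, 8 and 10. In normal colon they were 0.16, 0.13, 0.30, 0.08 and -0.16 in the DSS rats and 0.02, -0.12, 0.01, -0.22 and -0.01 in the untreated rats. In untreated rats every tumour was above every normal colon sample, though the tumour of rat 2 was above by little, and in DSS rats the groups overlapped.

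In untreated rats Inhba averaged 0.555 ± 0.328 in tumours and -0.064 ± 0.104 in normal colon (SD, n = 5 each), a 1.54-fold difference (log2 change 0.619 ± 0.167, limma adjusted p 0.0143). In DSS rats it averaged 0.61 ± 0.394 in tumours and 0.103 ± 0.169 in normal colon (SD, n = 5 each). That log2 change was 0.507 ± 0.167 with a limma adjusted p of 0.0759, and the adjusted p was 0.0507 with rat as a fixed block and 0.0272 with rat as a random block. Without rat 1 it was 0.64 (0.0474), and without rat 5 it was 0.51 (0.204). The tumour was higher than the normal colon of the same rat in 4 of 5 DSS rats and 5 of 5 untreated rats. With DSS the log2 change was 0.055 in tumours and 0.166 in normal colon, and neither passed the test.

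Inhba was dim in normal colon of untreated rats, where 2 of 7 arrays were well above background, against all 5 arrays of untreated tumours. With processed signals the log2 change in untreated rats was 2.45, and with a normexp offset of 10 it was 0.92. The call was lost within each slide set (0.457 with adjusted p 0.199 in set 1, 0.861 with 0.0943 in set 2) and without rat 4, 8 or 10 (0.0538 to 0.0977).

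Fst encodes follistatin, which traps activin and keeps it from its receptors. With the brighter of its 2 probes, tumours were at 0.53, -0.14, 1.15, 1.47 and -0.12 in DSS rats 1, 5, 6, 7 and 9, and at -0.21, -0.28, 1.37, -0.07 and -0.19 in untreated rats 2, 3, 4, 8 and 10. Normal colon was at -1.54, -1.67, 0.46, -0.95 and -2 in the DSS rats and at -1.08, -1.94, -0.84, -2.40 and -0.36 in the untreated rats. The tumour was higher than the normal colon of the same rat in all 10 rats, by 0.688 to 2.424 in DSS rats and by 0.167 to 2.337 in untreated rats. Normal colon of DSS rat 6 was the exception to low normal colon, and it overlapped the tumours.

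Fst averaged 0.578 ± 0.729 in tumours of DSS rats and -1.141 ± 0.971 in their normal colon (SD, n = 5 each), 3.29-fold apart. The log2 change was 1.719 ± 0.484 (limma adjusted p 0.0351). In untreated rats it averaged 0.124 ± 0.699 in tumours and -1.324 ± 0.833 in normal colon (SD, n = 5 each). The log2 change there was 1.449 ± 0.484, 2.73-fold, with a limma adjusted p of 0.0447. With DSS the log2 change was 0.453 ± 0.484 in tumours and 0.183 in normal colon, and neither passed the test.

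The second Fst probe gave a log2 change of 1.458 ± 0.388 in DSS rats (limma adjusted p 0.0261) and 1.081 ± 0.388 in untreated rats (0.062). Both calls lay close to the threshold and were lost within each slide set (adjusted p 0.134 to 0.418). The call in untreated rats was also lost without any one of rats 1, 2, 3, 4, 5 or 8 (0.0534 to 0.173), and that in DSS rats without rat 1, 5, 7 or 9 (0.0874 to 0.127). With rat as a fixed block the adjusted p was 0.00618 in DSS rats and 0.00704 in untreated rats.

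**Figure D2:**
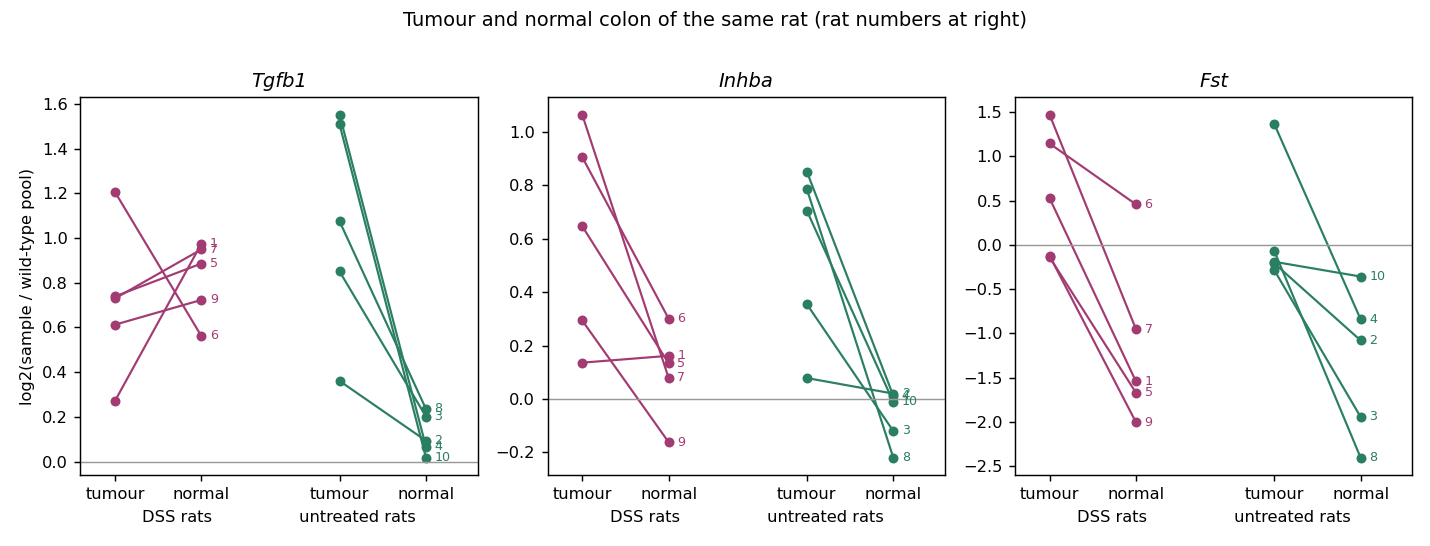
Levels of Tgfb1, Inhba and Fst in the tumour (left) and normal colon (right) of each rat, joined by a line, as log2 ratio to the pool. Fst is higher at the tumour end of all 10 lines, and Tgfb1 at that of 1 of 5 lines of DSS rats and 5 of 5 of untreated rats.

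With the brightest probe of each, the receptor genes were higher in tumours on average and did not pass the test. Tgfbr1, which encodes the kinase that phosphorylates SMAD2 and SMAD3, was at 0.74, 1.21, 0.92, 0.44 and 1.26 in tumours of DSS rats and at 0.83, 1.51, 1.66, 1.5 and 1.05 in tumours of untreated rats. Normal colon was at 0.61, 0.95, 0.58, 0.92 and 0.31 in DSS rats and at 1.25, 0.77, 0.74, 0.74 and 0.07 in untreated rats. Rat 2 ran against the others of its group, with 0.83 in its tumour and 1.25 in its normal colon. The 1.25 is the mean of 1.697 on the array of raised signal and 0.808 on the second array. With this probe the order thus rests on the first array. With both other probes of Tgfbr1, normal colon of rat 2 was above its tumour on each array. The levels were 0.651 and 0.599 against 0.402 with the second probe, and 0.196 and 0.216 against 0.084 with the third. The log2 change in untreated rats was 0.596 ± 0.211 (limma adjusted p 0.0575), and without rat 2 it was 0.852 (0.00784). Without the 3 arrays of raised signal it was 0.713 (0.0264). With rat as a fixed block the adjusted p was 0.0722 and with rat as a random block 0.0282, and in DSS rats the log2 change was 0.241 (0.584). Both other probes of Tgfbr1 gave smaller changes in untreated rats, 0.449 (adjusted p 0.0938) and 0.165 (0.406). In DSS rats the second probe averaged 0.504 in tumours and 0.511 in normal colon, and the tumour was higher in 2 of 5 rats. The third probe averaged 0.18 in tumours and 0.132 in normal colon of DSS rats.

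Tgfbr2, which encodes the receptor that binds TGF-beta first, was at 0.15, 0.84, 0.74, 0.45 and 0.14 in tumours of DSS rats and at 0.16, 0.69, 0.96, 0.59 and 0.40 in tumours of untreated rats. Normal colon was at 0.38, 0.35, 0.29, 0.18 and -0.06 in DSS rats and at 0.17, 0.38, 0.19, -0.06 and 0.01 in untreated rats. The groups overlapped, and the log2 change was 0.236 in DSS rats (limma adjusted p 0.441) and 0.422 ± 0.156 in untreated rats (0.0695). With rat as a fixed block the adjusted p in untreated rats was 0.0305, with rat as a random block 0.0244, and with slide set as a block it was 0.0311. For neither receptor was the difference between the DSS effects past the threshold.

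Smad3, the signal carrier itself, was well above background on 4 of 24 arrays, and all of its levels lay between -0.22 and 0.05. Without the filter its log2 changes were -0.043 to 0.027 in the 4 comparisons of 2 groups (limma adjusted p 0.719 to 1). A difference was not detectable at this signal.

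Smad7, the inhibitory SMAD, was bright on all 24 arrays and varied by slide set more than by group. Tumours were at 0.74, 0.76, 1.27, -0.65 and -0.79 in DSS rats 1, 5, 6, 7 and 9, and at 1.34, 1.61, 1.75, -0.19 and -0.43 in untreated rats 2, 3, 4, 8 and 10. Normal colon was at 1.12, 1.08, 0.27, -0.70 and -1.55 in DSS rats and at 1.60, 1.32, 2.05, -0.66 and -0.59 in untreated rats. In every group the 3 rats of slide set 1 were above 0 and the 2 rats of set 2 below it. The mean was -0.695 in set 2 and 1.245 in set 1, a gap of -1.939, and 0.0268% of all features had a gap as large. The same gap was between -0.28 and 0.308 for the other 8 tested genes.

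The gap was larger in the pool's channel than in the samples' channel. The Cy5 signal of the Smad7 probe above local background had a median of 4500 (4070 to 4950) in slide set 2, against 726 (456 to 1130) in set 1. The Cy3 signal of the samples had a median of 1560 (651 to 2120) in set 2, against 3510 (1180 to 7500) in set 1. With the slide set as a block, Smad7 was lower in normal colon of DSS rats than of untreated rats (log2 change -0.702 ± 0.198, limma adjusted p 0.0254). Without DSS rat 1 the blocked change was -0.778 (adjusted p 0.0283), and without DSS rat 5 it was -0.767 (0.0341). Without the block the same change had a limma adjusted p of 0.599. Within set 1 it was -0.834 (adjusted p 0.0613), and within set 2 it was -0.503 (0.542). Group means within set 1 were 0.926 in tumours and 0.826 in normal colon of DSS rats, and 1.567 in tumours and 1.66 in normal colon of untreated rats. Within set 2 they were -0.72 and -1.126 in DSS rats, and -0.311 and -0.623 in untreated rats. In each set the DSS means of both tissues were thus below the untreated means.

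**Figure D3:**
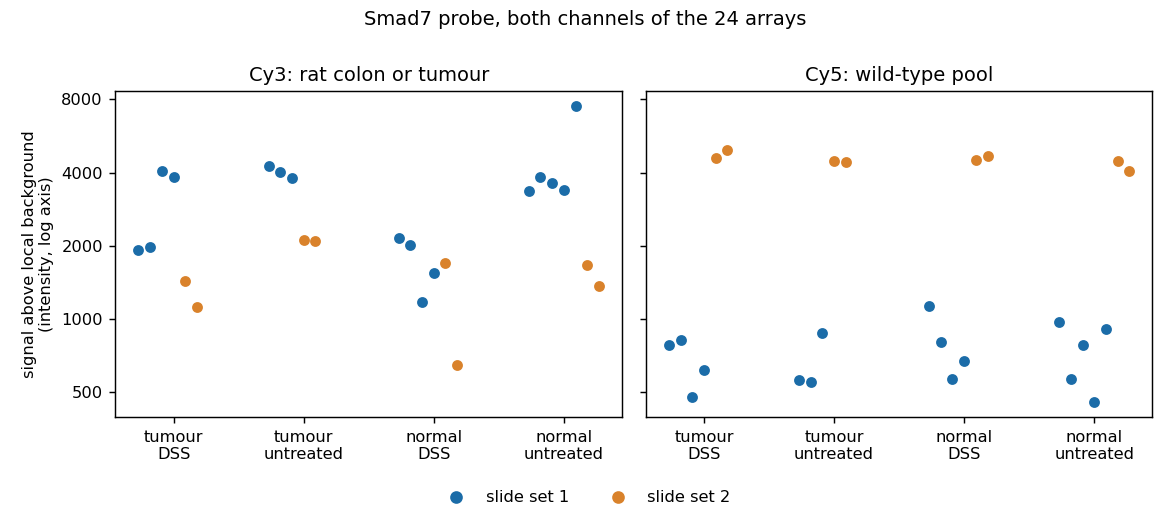
Smad7 signal above local background on each array (log axis, intensity units), for the samples' Cy3 channel and the pool's Cy5 channel, by group and slide set. The pool's signal is 4070 to 4950 on the arrays of slide set 2 and 456 to 1130 on those of set 1, although the pool is labelled as the same colon reference on all arrays.

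Tgfbi encodes a matrix protein induced by TGF-beta. With its brighter probe it was below the pool in all 20 samples. It averaged -1.253 ± 0.549 in tumours and -1.193 ± 0.477 in normal colon of DSS rats, and -0.961 ± 0.529 in tumours and -1.314 ± 0.206 in normal colon of untreated rats (SD, n = 5 each). The log2 change in tumours was -0.06 in DSS rats and 0.353 ± 0.276 in untreated rats (limma adjusted p 0.454), and all groups overlapped. The second probe, well above background on 17 arrays, averaged 0.079 in tumours and -0.029 in normal colon of DSS rats, and 0.125 in tumours and -0.001 in normal colon of untreated rats. Its median pool signal, 35.7 and 37.3 intensity units above local background in the 2 slide sets, was below the offset of 50, so its levels near 0 cannot be set against those of the brighter probe. Neither probe gave a change past the threshold.

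In tumours of untreated rats, 3 of the 9 tested genes rose and none fell, where 18.2% of the 26097 features tested passed in either direction, 8.7% higher and 9.5% lower. The median log2 change was 0.422 over the 9 genes and -0.002 over all features. For tumours of DSS rats 1 of 9 rose, Fst, where 7.66% of all features passed, 3.78% higher and 3.88% lower, and the medians were 0.222 and 0.022. In normal colon of DSS rats 1 of 9, Tgfb1, was higher than in untreated rats, where 7.37% passed, 3.98% higher and 3.39% lower, with medians of 0.121 and -0.015. Between tumours of DSS and of untreated rats none of the 9 passed in limma, nor did any feature (0%), and at an unadjusted p under 0.05 there were 0 of the 9 genes and 1657 of all features. For the difference between the DSS effects, 1 of 9 passed, Tgfb1, where 2.61% of all features did, 0.885% higher and 1.72% lower. Within slide set 1 alone none of the 9 passed in tumours of untreated rats, and within set 2 alone 1 did. A single call among 9 genes is near what these shares of all features give.

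**Figure D4:**
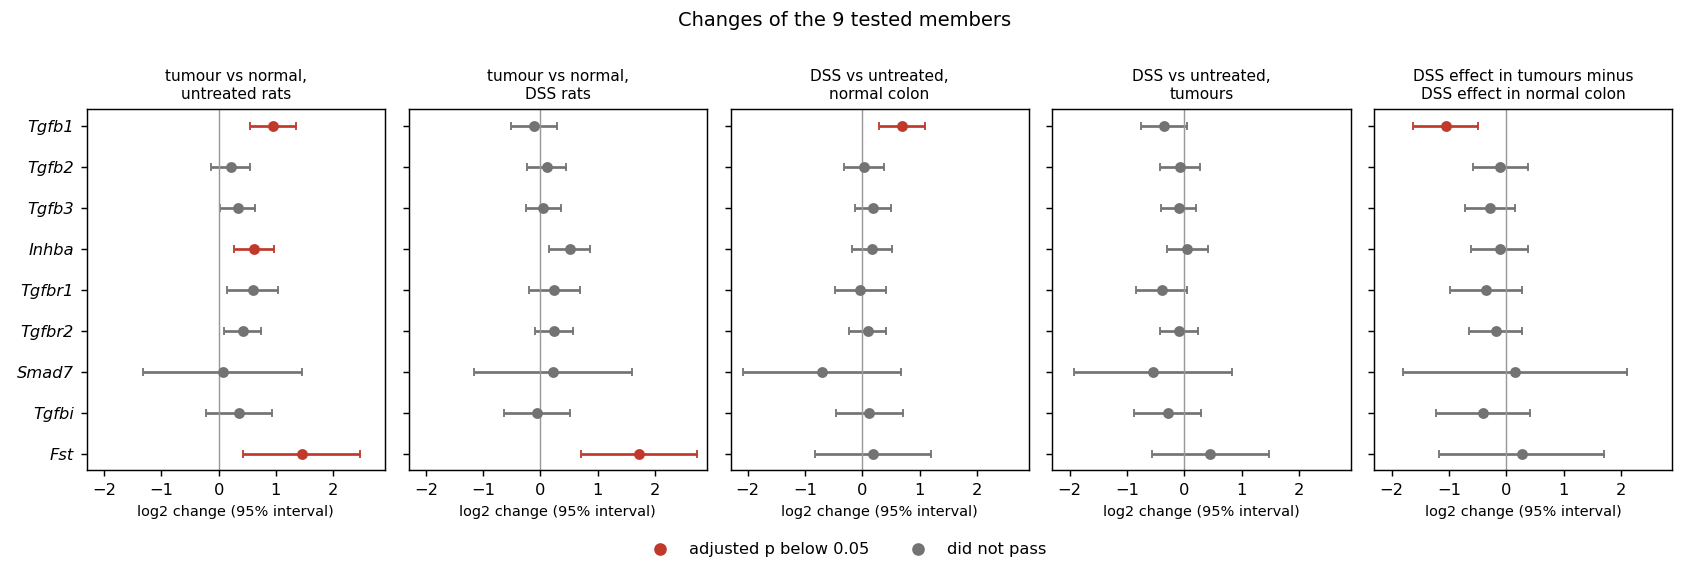
Log2 change of each tested gene in the 5 comparisons, with 95% intervals. Red points passed the adjusted threshold of 0.05: Tgfb1, Inhba and Fst in tumours of untreated rats, Fst in tumours of DSS rats, and Tgfb1 in normal colon with DSS and in the difference between the DSS effects.

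Of the genes that hold TGF-beta latent or release it, 11 were measured. In tumours of untreated rats 5 of them rose and none fell, with a median log2 change of 0.402, where 8.7% of all features rose. Those that rose are named next. They were Itgb6 (1.765 ± 0.249, limma adjusted p 0.000111) and Itgav (1.598 ± 0.274, 0.000567), the chains of an integrin that frees latent TGF-beta, the membrane protease gene Mmp14 (1.363 ± 0.296, 0.00351), the urokinase gene Plau and the latency binding protein gene Ltbp1. None of the 11 passed in tumours of DSS rats, where 3.78% of all features rose and 3.88% fell, and the median was -0.085. In normal colon of DSS rats 3 of 11 were higher than in untreated rats, with a median of 0.435, where 3.98% of all features were higher. These were Ltbp1 (2.359 ± 0.405, limma adjusted p 0.0013), Plau (1.37 ± 0.268, 0.00366) and Itgav (1.281 ± 0.274, 0.0074). The DSS effect in tumours minus that in normal colon was -2.215 ± 0.388 for Itgav (limma adjusted p 0.00388) and -2.205 ± 0.572 for Ltbp1 (0.0465). These were 2 of the 11, where 1.72% of all features were lower for that difference.

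Of the known target genes of TGF-beta, 22 were measured. In tumours of untreated rats 9 of them rose and 1 fell, with a median log2 change of 0.565. Of all features 8.7% rose and 9.5% fell there. The largest increases were Ccn2, a matricellular protein gene (2.605 ± 0.443, limma adjusted p 0.000535), fibronectin, Fn1 (1.544 ± 0.281, 0.000919), and collagen Col1a1 (1.492 ± 0.444, 0.0245). Col1a2, Col3a1, Id2, Id3 and Sparc were among the others that rose. Cdkn2b, the gene of the cell cycle inhibitor p15, was lower (-1.019 ± 0.321, limma adjusted p 0.0332). Of the 22, 1 passed in tumours of DSS rats, Id3 (1.0 ± 0.2, limma adjusted p 0.0041), and the median was 0.383. That count is near the 3.78% of all features that rose there. In normal colon of DSS rats 1 was higher than in untreated rats, Fn1 (1.124 ± 0.281, limma adjusted p 0.0202), with a median of 0.304. That too is near the share of all features, 3.98%. No target gene passed for the difference between the DSS effects. The list does not separate targets that TGF-beta raises from those it lowers, so these counts do not give the direction of the signal.

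Among 12 inhibitors and turnover genes, 4 rose in tumours of untreated rats and none fell, with a median of 0.117, where 8.7% of all features rose. The genes that rose are given here. They were Dcn, a matrix proteoglycan that binds TGF-beta (3.026 ± 0.445, limma adjusted p 0.000155), Pmepa1, an induced brake on SMAD activation (1.196 ± 0.161, 7.47e-05), the receptor-binding immunophilin gene Fkbp1a (0.832, 0.0277) and the deubiquitinase gene Usp15. The 1 that rose in tumours of DSS rats, where 3.78% of all features rose, was Bambi, a decoy receptor (1.209 ± 0.274, limma adjusted p 0.00951). In normal colon of DSS rats Dcn (1.668 ± 0.445, 0.0282) and Pmepa1 (0.574, 0.0363) were higher than in untreated rats and Bambi was lower (-1.111 ± 0.274, limma adjusted p 0.0184). That was 2 of 12 higher and 1 lower, where 3.98% of all features were higher and 3.39% lower.

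Among 12 Smads and nuclear partners, Tgif1 and Skil, both repressors of SMAD-driven transcription, rose in tumours of untreated rats (0.908 and 0.732, limma adjusted p 0.000842 and 0.0146). The median was -0.019, and 8.7% of all features rose there. In tumours of DSS rats Tgif1 alone of the 12 rose (1.151, limma adjusted p 0.000225), and none passed in normal colon with DSS. Among 12 other ligands and receptors, the TGF-beta co-receptor gene Eng rose in tumours of untreated rats (0.233, 0.0188). The inhibin alpha gene Inha (-0.352, 0.0144) and the activin receptor gene Acvr1b (-0.249, 0.0309) fell there. Gdf11, a ligand of the activin branch, rose in tumours of DSS rats (0.462 ± 0.082, limma adjusted p 0.00154). Acvr2b was lower in normal colon of DSS than of untreated rats (-0.291, 0.048). No gene of these 5 lists passed between DSS and untreated tumours. Single calls among the 12 genes of a list are near what the shares of all features give.

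The list counts in tumours of untreated rats depended on the centring. With median centring 1 of 11 latency and activation genes, 1 of 12 inhibitors and 2 of 22 target genes rose. Under that setting 1.33% of all features were higher, against 8.7% with loess. Without 1 rat at a time these counts were 4 to 5, 2 to 4 and 7 to 10, and without the 3 arrays of raised signal they were 4, 4 and 9. In normal colon with DSS, Pmepa1 passed in 10 of 23 alternatives and Acvr2b in 9 of 23, and for the difference between the DSS effects Ltbp1 passed in 11 of 24.

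Several of the calls that rest on normal colon of DSS rats were lost without rat 1 or rat 5, the 2 closely correlated samples. Without rat 1 and without rat 5, the adjusted p in normal colon with DSS was 0.0696 and 0.0736 for Dcn, 0.0714 and 0.0789 for Pmepa1, and 0.069 and 0.0965 for Acvr2b. For the difference between the DSS effects it was 0.114 and 0.138 for Ltbp1. Ltbp1, Plau, Itgav, Fn1 and Bambi passed in normal colon without either rat, with the highest adjusted p for Fn1 (0.0435 without rat 1). Itgav passed for the difference, and Bambi, Tgif1, Id3 and Gdf11 passed in tumours of DSS rats, without either rat.

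**Figure D5:**
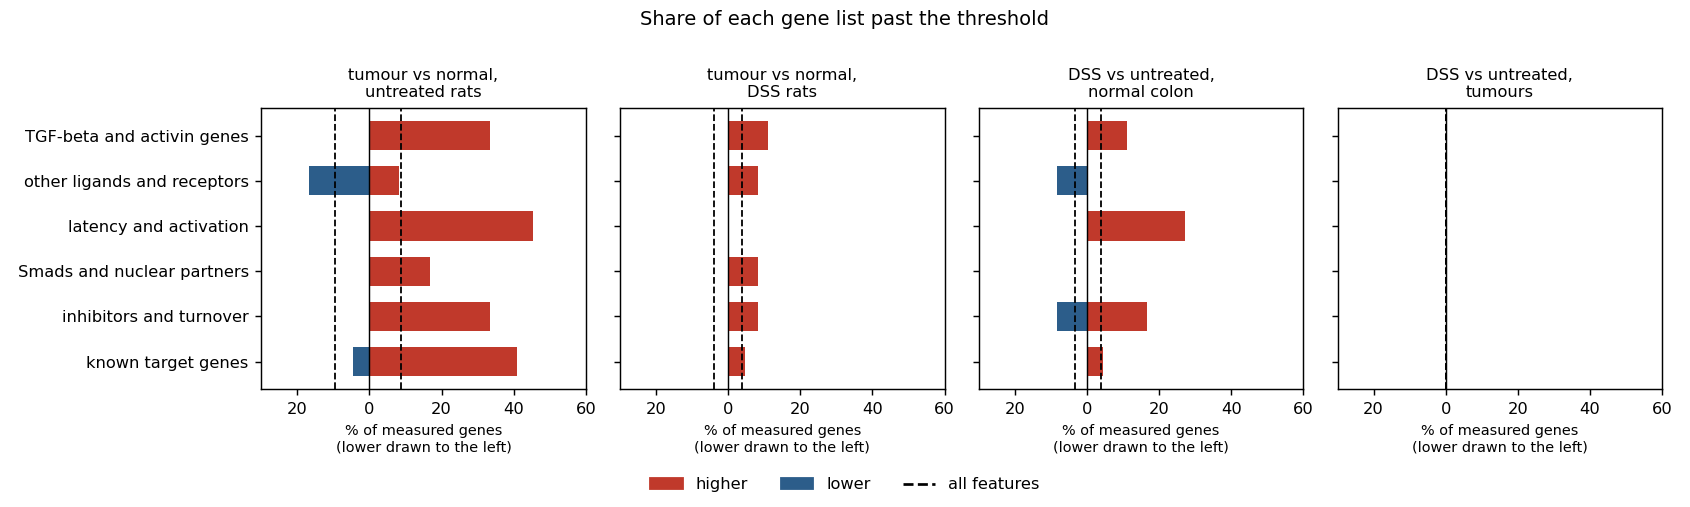
Share of the measured genes of each list past the threshold (horizontal axis, percent) in 4 comparisons, higher drawn to the right in red and lower to the left in blue, with dashed lines for the share of all features. In tumours of untreated rats 5 of 11 latency and activation genes and 9 of 22 target genes are higher, in tumours of DSS rats 0 of 11 and 1 of 22 are, and no bar is drawn between DSS and untreated tumours.

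Markers of some other cells also changed. In tumours of untreated rats 8.7% of all features rose and 9.5% fell, and in tumours of DSS rats 3.78% rose and 3.88% fell. Of 10 measured fibroblast markers, 5 rose in tumours of untreated rats (median log2 change 0.864) and 0 in tumours of DSS rats (0.679). Dcn, Col1a1, Col1a2 and Col3a1 stand in that list and in the lists above. The mean fibroblast level was -1.178 to -0.182 in tumours and -2.012 to -1.069 in normal colon of DSS rats, and -1.4 to -0.085 in tumours and -2.332 to -1.191 in normal colon of untreated rats. Of 9 macrophage markers, 5 rose in tumours of untreated rats, with mean levels of 0.049 to 0.739 in tumours and -0.425 to -0.087 in normal colon. In DSS rats those means were 0.059 to 0.511 in tumours and 0.034 to 0.107 in normal colon, and 1 of the 9 rose. Msr1, which is among the 9, was well above background on 4 of 6 arrays of DSS tumours and 4 of 5 of untreated tumours. In normal colon it was so on 0 of 6 arrays of DSS rats and 2 of 7 of untreated rats. It passed the filter only through tumours, so a rise of Msr1 there was favoured by the filter. Of 6 smooth muscle markers, 1 rose and 1 fell in tumours of untreated rats (median log2 change 0.118), and 1 rose in tumours of DSS rats (0.674). Of 7 endothelial markers, 1 rose in tumours of untreated rats (median 0.122) and 0 in tumours of DSS rats (0.017). Of 11 colonic epithelium markers, 3 fell in tumours of DSS rats and 4 in tumours of untreated rats. The squamous markers given above were raised in the same normal colon samples of DSS rats as Ltbp1, Plau, Itgav, Fn1, Dcn and Pmepa1. The part of these shifts in the results above was not tested.

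Across the 20 samples the genes most like Tgfb1 among features with a current symbol included the Notch ligand gene Jag2 (Pearson r 0.904) and the connexin gene Gjb5 (0.902). Those most like Inhba were Axin2, a feedback inhibitor and target of Wnt signalling (0.93), the microtubule-binding protein gene Clasp1 (0.917) and Trim27 (0.914). Those most like Fst were Tm4sf4 (0.921), the sulfotransferase gene Tpst1 (0.877) and RGD1564536 (0.871). The samples share the pool and the slide sets. With the mean of each slide set subtracted, Jag2 (0.927) led for Tgfb1, and Axin2 (0.938) and Tm4sf4 (0.926) led for Inhba and Fst.

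The promoter windows of Tgfb1 and Inhba are shown because both ligand genes rose in tumours of untreated rats. Each is the window that the RefSeq promoter table of build GRCr8 gives, 250 bases before to 50 after the start it uses for the gene. For Inhba that start lies inside the span of the gene given above, and for Tgfb1 it is the first base of the gene. The Tgfb1 window is chr1:90324062-90324361 on the plus strand, and the Inhba window is chr17:53804459-53804758 on the minus strand. Both strands were searched for CAGACA and GTCTAGAC, bound by SMADs, for TGACTCA, the AP-1 motif, and for ATCAAAG, bound by TCF factors. CAGACA, in capitals, was found once, in the Inhba window, from 2 bases before the start used there and across it.
Tgfb1: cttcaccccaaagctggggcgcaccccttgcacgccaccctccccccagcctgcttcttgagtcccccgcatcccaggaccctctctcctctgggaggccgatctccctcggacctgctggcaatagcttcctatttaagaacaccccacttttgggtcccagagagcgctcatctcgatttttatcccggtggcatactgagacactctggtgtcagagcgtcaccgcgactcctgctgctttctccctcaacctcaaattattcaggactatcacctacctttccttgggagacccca
Inhba: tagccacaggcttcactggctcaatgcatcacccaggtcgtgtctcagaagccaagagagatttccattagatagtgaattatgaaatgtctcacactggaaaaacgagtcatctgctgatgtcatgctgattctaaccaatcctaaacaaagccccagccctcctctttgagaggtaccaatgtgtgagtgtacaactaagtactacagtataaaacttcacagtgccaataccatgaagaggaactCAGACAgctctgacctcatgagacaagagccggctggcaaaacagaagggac
Of the 33469 promoter windows of the table, 21.1% hold CAGACA, 4.63% the AP-1 motif, 3.63% ATCAAAG and 0.197% GTCTAGAC. Of the 9 genes here with a window, 1 held CAGACA and 0 held any of the others.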

How the data were processed

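RNA was amplified and labelled with the Agilent low RNA input kit, per the labels' protocols, and the dyes were not swapped. The deposited scanner files hold spot signals and backgrounds in intensity units, which Agilent Feature Extraction 9.1.3.1 wrote, as read from the file headers. A log10 ratio of Cy5 over Cy3 is deposited too, and between 75.1% and 98.9% of an array's gene spots matched a recomputed value to 0.01. Partek also appears in the submitters' processing notes, without a role.

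The members and lists were chosen with earlier results of these data known. Ratios were remade with limma 3.58.1 (R 4.3.3; data.table, version 1.17.8; statmod 1.5.0): normexp with an offset of 50 on the mean signals, then loess per array on log2 of Cy3 over Cy5, in which control and non-uniform spots had no weight. Spots of a probe were averaged, probes well above background in Cy3 on at least 5 of 24 arrays were kept, and the brightest probe stood for its gene. Names came from accessions (10835 probes), current symbols (5196) or older names (3478), and 21503 probes kept the file's name. This left 26097 features, 12613 with a current symbol, and 390 missing values (0.0747%).

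The 4 second arrays were averaged with the first, giving 20 samples. One limma model with a mean per group was fitted, with two-sided tests, Benjamini-Hochberg adjustment over all features, a threshold of 0.05, 16 residual and 2.24 prior degrees of freedom. It was tested on simulated data. Tumour and normal colon are paired by animal: after group means were removed, the 2 tissues of a rat correlated at 0.0801 to 0.567, and rat was used as a block in an alternative. Other alternatives were processed signals, offset 10, median centring, no filter or one of 12 arrays, the second probe, blocks of slide or slide set, each slide set alone, and leaving out the 3 arrays of raised signal or each rat. Scan day as a block, and slide set as a block without DSS rat 1 or 5 for Smad7, were added after seeing the data. From each pathway list up to 3 genes per direction with the largest change past the threshold were named, and further ones that passed were named after their values were seen. The number of arrays limits the precision. One gene that the naming rules would give is not reported here.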

Additional observations from a re-analysis of the deposited data

Results flagged for a closer look

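Of 40 sets of 5 samples (10 genes in 4 groups), 3 held a sample far from the other 4, and chance alone puts about 1 in 20 sets past that limit. Fst in the tumour of untreated rat 4 was at 1.37, where the nearest tumour of its group was at -0.07. Without rat 4 the Fst change in untreated rats was 1.259 (limma adjusted p 0.123). Tgfb2 in the normal colon of untreated rat 8 was at -0.57, against -0.11 for the nearest sample of its group. Rat 8 is also the untreated rat whose normal colon held squamous markers. Tgfb3 in the tumour of DSS rat 5 was at -0.46, against -0.07 for the nearest. Tgfb2 and Tgfb3 are dim, so that both values lie near background.

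For Tgfb1 the log2 change with DSS in tumours minus that in normal colon was -1.05 (limma adjusted p 0.0429). It passed the threshold in 11 of 25 alternatives. It missed it with rat as a fixed block (0.0583), without the 3 arrays of raised signal (0.133), within each slide set and without any one of 8 rats.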

How the results depend on the processing

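Directions did not reverse for any member call in the alternatives run. The number of members called in tumours of untreated rats (3) was 5 with Agilent's processed signals, 5 with slide set as a block, 5 with rat as a random block, 1 with median centring, 0 within slide set 1, 1 within slide set 2, and 1 to 4 without 1 rat. In tumours of DSS rats (1) it was 2 with slide or rat as a random block, 0 with median centring, with no filter and within either slide set, and 0 to 1 without 1 rat. For DSS in normal colon (1) it was 2 with processed signals and with slide set or scan day as a block, 0 with median centring, without the 3 arrays of raised signal and within either slide set, and 0 to 1 without 1 rat. For the difference between the DSS effects (1) it was 0 with median centring, with no filter, with rat as a fixed block, without the arrays of raised signal and within either slide set, and 0 to 1 without 1 rat. No alternative called a member between DSS and untreated tumours. In the tumour comparisons and the difference, the replicate block, rat fixed, changed no other call of a member than that of the Tgfb1 difference and of Tgfbr2. The DSS comparisons within a tissue lie between rats and cannot be fitted with that block, so their calls were not tried under it. Over all features, the calls in tumours of untreated rats ranged from 903 (median centring) to 6615 (slide set as a block), against 4750. Those in tumours of DSS rats ranged from 110 (slide set 2 alone) to 3372, those for DSS in normal colon from 2 to 3494, those for the difference from 3 to 1670, and those for DSS in tumours from 0 to 4. Median centring moved the median log2 change of all features to 0.253 in tumours of DSS rats (against 0.022), 0.226 between tumours (0.006) and 0.384 for the difference (0.023). Aquantile normalization leaves ratios unchanged by construction. Signals of Tgfb2, Tgfb3, Inhba and Smad3 near background limit what these genes can show, and the causes of the other changes were not tested.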
